A study of Homo sapiens with 12 samples.

Results

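MALAT1, NEAT1, MIAT, KCNQ1OT1, NORAD and OIP5-AS1 are long noncoding RNAs of which most stay in the nucleus and several are tied to speckles or paraspeckles. They were taken as the rows whose Ensembl identifier, with its version dropped, corresponds to those 6 symbols, and all 6 were found among the 58288 genes of the tables. The data are RNA-Seq of HPB-ALL and KOPTK1, established human T-cell acute lymphoblastic leukemia (T-ALL) lines. All cells carried a pLKO.1 lentivirus expressing an shRNA, directed either against SHQ1, an assembly chaperone of H/ACA snoRNPs (shSHQ1), or against GFP as the control (shGFP), and all were kept in puromycin. Each line has 3 samples of each shRNA, 12 in all. Nothing in the labels says whether the repeats were separate cultures, so the spread between repeats may be technical. Line was the only term of the model, so p-values measure only the spread among these libraries within a line. That spread includes any effect of the shRNA and any distance between sets of libraries of a line, described below. The 6 count columns of each table are headed by bare numbers (7 to 12 for HPB-ALL and 1 to 6 for KOPTK1) that give neither the sample nor the shRNA. Libraries are therefore named here by line and header number, and shSHQ1 was not compared with shGFP. The comparison made is that of the lines over all 12 libraries, with both shRNAs in each. Subsets of 3 libraries, also used below, may not hold both shRNAs.

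MALAT1 is retained in nuclear speckles, where splicing factors are stored. NEAT1 is the scaffold on which paraspeckles form with the proteins NONO, SFPQ and PSPC1. MIAT binds splicing regulators such as SF1 and QKI. KCNQ1OT1 is an unspliced antisense transcript from within KCNQ1 that silences neighbouring imprinted genes on the paternal chromosome. NORAD is an unspliced RNA that holds many binding sites for Pumilio proteins such as PUM2 and is largely cytoplasmic. OIP5-AS1 lies on the strand opposite to OIP5, with the 3′ ends of both genes overlapping by the coordinates in the tables, and binds the RNA-stability factor ELAVL1 (HuR). These roles are background from other cells and were not measured here. RNA depleted of rRNA, as used for these libraries, keeps transcripts with or without a poly(A) tail.

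By the coordinates in the tables, which are those of GRCh38, MALAT1 lies at chr11:65497762-65506516 (+) with 8755 exonic bases and NEAT1 at chr11:65422774-65445540 (+) with 22767. The end of NEAT1 and the start of MALAT1 are 52221 bases apart. KCNQ1OT1 lies on the other arm of the same chromosome, at chr11:2608328-2699994 (-), and is listed as 1 exon of 91667 bases. NORAD is also listed as 1 exon, of 5339 bases, at chr20:36045622-36050960 (-). MIAT covers chr22:26657520-26676475 (+) with 10143 exonic bases, and OIP5-AS1 covers chr15:41284005-41309737 (+) with 10473.

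The Pumilio element of NORAD is what this RNA is best known for, and 5 of its copies are shown because their surroundings repeat. The element was searched as TGTANATA (N, any base) on the transcript strand of the longest GENCODE 44 transcript of each gene. NORAD held 15 elements in 5401 bases, or 2.78 per kb, of which 10 read TGTATATA, 4 read TGTAAATA and 1 read TGTACATA. Capitals mark the element in the 30-base stretches below, given 5′ to 3′ as DNA letters with the first base of the element counted from the transcript start.

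NORAD element 2, base 1198: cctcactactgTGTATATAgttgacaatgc
NORAD element 11, base 3030: caaccctactgTGTATATAgcggacaaact
NORAD element 14, base 3651: caatgctactgTGTATATAatggaaaactt
NORAD element 3, base 1299: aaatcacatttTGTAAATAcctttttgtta
NORAD element 6, base 1883: aaataccacttTGTAAATAtctttttgcta

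Elements 2, 11 and 14, and no others of the 15, are preceded by ctactg, and elements 3 and 6, again with no others, have ctttttg in the 11 bases that follow. Among 4380 lncRNA genes with a longest transcript of at least 2000 bases, 27.5% held at least 1 element, and 5 held more per kb than NORAD. NEAT1 had 6 elements (0.264 per kb), KCNQ1OT1 had 9 (0.0982 per kb) and OIP5-AS1 had 1 (0.113 per kb). No element was found in the transcripts of MALAT1 or MIAT. A match describes letters and is not evidence of binding.

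The start regions of NORAD and OIP5-AS1 are shown because each holds the E-box CACGTG, the letters read by MYC-MAX and USF proteins, among others. The RefSeq windows (250 bases before to 50 after the start, GRCh38.p14) cover 4 of the 6 members, with NEAT1 and KCNQ1OT1 not among them. The E-box, which reads the same on both strands, is in capitals.

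NORAD, chr20:36050911-36051210 (-): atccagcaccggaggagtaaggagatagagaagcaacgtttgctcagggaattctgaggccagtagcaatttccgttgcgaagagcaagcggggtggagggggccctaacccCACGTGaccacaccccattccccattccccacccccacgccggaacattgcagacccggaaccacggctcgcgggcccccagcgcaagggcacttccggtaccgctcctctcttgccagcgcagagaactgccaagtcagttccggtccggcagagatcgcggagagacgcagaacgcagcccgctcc
OIP5-AS1, chr15:41283740-41284039 (+): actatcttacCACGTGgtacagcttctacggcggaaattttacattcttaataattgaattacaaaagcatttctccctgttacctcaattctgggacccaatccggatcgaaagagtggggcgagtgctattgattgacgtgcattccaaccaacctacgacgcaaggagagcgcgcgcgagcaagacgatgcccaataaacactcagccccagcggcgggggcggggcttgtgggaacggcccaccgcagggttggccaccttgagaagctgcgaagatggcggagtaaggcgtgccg

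The E-box starts 138 bases before the start site of NORAD and 240 bases before that of OIP5-AS1. CACGTG was present in 7.26% of all 35116 such windows, and in none of the other 3 windows of members (2 for MALAT1 and 1 for MIAT). Of the other motifs searched on both strands, the GC box GGGCGG occurred 5 times in the upstream MALAT1 window and once in that of OIP5-AS1 (45.0% of all windows hold it). The CCAAT box occurred 2 times in the OIP5-AS1 window and in no other member window (34.6% of all windows), and TATAAA occurred once, in the second MALAT1 window (11.5% of all windows). None of the letters of these motifs overlaps those of another. The data hold no measurement of binding at these sites.

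Before the levels are compared, the KOPTK1 libraries have to be described, since they fell into separate sets. Total counts ran from 22884785 to 42842791 per library. Spearman correlations of log2 levels were 0.983 to 0.986 among the HPB-ALL libraries, and 0.954 to 0.961 between KOPTK1 libraries 1 to 3 and KOPTK1 libraries 4 to 6. KOPTK1 libraries 1 to 3 were closer to HPB-ALL (0.933 to 0.945) than KOPTK1 libraries 4 to 6 were (0.863 to 0.876). These correlations are across genes, which are not independent replicates. A set of 112 genes was at least 10 times lower in every HPB-ALL library than in the highest KOPTK1 library. Their median level, as a share of the highest library, was 95.1 to 98.3% in KOPTK1 libraries 4 to 6, 55.1 to 56.6% in KOPTK1 libraries 1 to 3, 3.17 to 3.47% in HPB-ALL libraries 10 to 12 and 0.582 to 0.822% in HPB-ALL libraries 7 to 9. The converse set of 75 genes, at least 10 times lower in the lowest KOPTK1 library than in the highest HPB-ALL library, was at 87.3 to 91.0% in HPB-ALL, 40.8 to 44.4% in KOPTK1 libraries 1 to 3 and 9.17 to 9.61% in KOPTK1 libraries 4 to 6. With a limit of 20-fold in place of 10-fold, the KOPTK1 set held 66 genes, at 54.8 to 55.6% in KOPTK1 libraries 1 to 3, and the HPB-ALL set held 26 genes, at 33.3, 29.4 and 11.3% in KOPTK1 libraries 1, 2 and 3 and at 6.89 to 8.20% in libraries 4 to 6. For the smaller set library 3 thus stood near libraries 4 to 6. These sets were chosen from the same values and serve only as a description. Of 8 oncogenes listed as restricted to some lines, TAL1 followed the order of the HPB-ALL set. It was at 39.1 to 45.2 RPKM in HPB-ALL. In KOPTK1 it was at 23.9 to 26.7 RPKM in libraries 1 to 3 and 12.5 to 12.7 in libraries 4 to 6. LMO2 was higher in KOPTK1, at a mean of 1.53 RPKM beside 0.156 in HPB-ALL. Its log2 difference (HPB-ALL minus KOPTK1) was -3.66 with KOPTK1 libraries 4 to 6 alone and -2.72 with libraries 1 to 3 alone. The other 6 were under 1 RPKM in every library, with TLX3 at a mean of 0.00603 in HPB-ALL and 0.0649 in KOPTK1. Whether these levels match the named lines was not tested. All 10 T-cell markers listed were detected in both lines, with summed levels of 1170 to 1247 RPKM in HPB-ALL and 1146 to 1167 in KOPTK1, and the 5 myeloid markers were under 1 RPKM in every library. Of 5 B-cell markers, CD79A reached 39.9 to 46.3 RPKM in HPB-ALL and 5.89 to 24.8 in KOPTK1, with summed levels of the list at 41.1 to 47.0 and 7.44 to 26.2. MS4A1, CD79B and PAX5 were under 1 RPKM in all libraries. Of 4 erythroid markers, summed at 1.92 to 2.92 RPKM in HPB-ALL and 1.98 to 2.72 in KOPTK1, 3 were under 1 RPKM in all libraries. Whether KOPTK1 libraries 1 to 3 hold RNA of both lines was not tested, and if they do, folds between the lines over all 12 libraries are not those of pure lines. The part of this difference in the results below was not tested either. The members, the lists of partners, neighbours and other noncoding RNAs, and many of the named genes are therefore given with all 12 libraries and with each set of KOPTK1 libraries alone. The shRNAs in each set are not known, so with 1 set alone line and shRNA cannot be told apart.

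The levels of the members spanned about 3 orders of magnitude and kept 1 order in all libraries. Levels are given as RPKM (counts scaled to exon length and, by TMM, to library size), which allows genes of different length to be compared. MALAT1 was the highest, with a mean of 667 ± 21.0 RPKM in HPB-ALL and 1016 ± 176 in KOPTK1 (SD, n = 6 for each). NORAD followed at 67.4 ± 5.57 and 77.2 ± 3.53 RPKM, then NEAT1 at 32.5 ± 2.23 and 37.9 ± 4.34, OIP5-AS1 at 27.4 ± 0.679 and 20.5 ± 2.00, MIAT at 3.77 ± 0.303 and 8.23 ± 1.39, and KCNQ1OT1 at 0.690 ± 0.0450 and 1.01 ± 0.0814. Each member was above the next in 12 of 12 libraries. The closest neighbours were NEAT1 and OIP5-AS1, whose ratio within a library was 1.04 to 1.31 in HPB-ALL and 1.40 to 2.28 in KOPTK1. All other neighbours in the order were separated by a ratio of 1.88 or more in every library.

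By counts, MALAT1 ranked 1 of 58288 genes in both lines, with 0.561 to 0.613% of all counts in HPB-ALL libraries and 0.719 to 1.09% in KOPTK1 libraries. Per kilobase it ranked 15 in both. The entries above it include a short same-strand entry that shares 95 exonic bases with MALAT1 itself, at a mean of 1489 RPKM in HPB-ALL and 2233 in KOPTK1. Length changes the picture for KCNQ1OT1 most. Its 91667 bases collected 2236 to 3094 counts per library, more than MIAT in every library, while its RPKM was the lowest of the 6. MIAT held 1389 to 1735 counts in HPB-ALL libraries and 2211.2 to 2548.5 in KOPTK1 libraries. By mean RPKM, NORAD ranked 791 in HPB-ALL and 602 in KOPTK1, NEAT1 2298 and 1728, OIP5-AS1 2931 and 4175, and KCNQ1OT1 24205 and 23144.

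In the comparison of the lines, 5 members were higher in KOPTK1 and OIP5-AS1 was higher in HPB-ALL, all past an adjusted p of 0.05 (edgeR quasi-likelihood test, Benjamini-Hochberg over 24247 genes). Of all tested genes, 65.5% passed that threshold, 34.1% as higher in KOPTK1 and 31.3% as higher in HPB-ALL, with a median log2 difference of -0.03 (HPB-ALL minus KOPTK1, the direction used throughout). Passing the threshold was therefore common, and the size of each difference is the more informative value: the median absolute log2 difference over all tested genes was 0.33. The libraries of the lines did not overlap for 5 of the 6 members, against 45.3% of all tested genes. All 6 passed the filter of a mean of 1 RPKM in either line, KCNQ1OT1 only through its KOPTK1 mean of 1.01 RPKM. In bulk RNA a smaller number of cells expressing an RNA and less of it per cell cannot be told apart.

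MIAT differed most. It was at 3.33, 3.82 and 4.04 RPKM (lowest, median and highest) in HPB-ALL, and at 6.73, 8.42 and 9.56 in KOPTK1. Every KOPTK1 library was above every HPB-ALL library. The log2 difference was -1.13 (SE 0.10, adjusted p 5.30e-07, edgeR), a 2.2-fold higher level in KOPTK1. With KOPTK1 libraries 4 to 6 alone (9.36 to 9.56 RPKM) it was -1.30 (SE 0.05), and with libraries 1 to 3 alone (6.73 to 7.48 RPKM) it was -0.88 (SE 0.06). MIAT shares 21.2% of its exonic bases with a gene on the opposite strand. On its own strand it shares 2.2% with MIATNB and 0.838 to 3.72% with each of several further entries. The library kit does not mark strand, so reads of these genes cannot be told apart there.

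MALAT1 was at 645, 667 and 695 RPKM (lowest, median and highest) in HPB-ALL and at 825, 1009 and 1252 in KOPTK1, without overlap. KOPTK1 libraries 1 to 3 held 865, 896 and 825 RPKM, and libraries 4 to 6 held 1121, 1137 and 1252. The lower set thus stood between HPB-ALL and the upper set. The log2 difference was -0.61 (SE 0.09, adjusted p 6.08e-05, edgeR), or 1.52-fold. It was -0.78 (SE 0.03) with KOPTK1 libraries 4 to 6 alone and -0.36 (SE 0.03) with libraries 1 to 3 alone. Exon overlap with other listed genes was at most 4.52% of MALAT1.

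KCNQ1OT1 was at 0.632, 0.686 and 0.740 RPKM in HPB-ALL and at 0.888, 1.02 and 1.11 in KOPTK1 (lowest, median and highest), again without overlap. Its log2 difference was -0.56 (SE 0.06, adjusted p 2.04e-06, edgeR), or 1.47-fold, and -0.62 (SE 0.05) with KOPTK1 libraries 4 to 6 alone. With libraries 1 to 3 alone it fell below the filter and was not tested. The protein-coding host gene KCNQ1, which encodes a potassium channel, was at 0.0437 RPKM in HPB-ALL and 0.0982 in KOPTK1 and below the filter. Its exons cover 0.132% of KCNQ1OT1. Of the imprinted genes of this cluster, CDKN1C, an inhibitor of cyclin-dependent kinases, was higher in KOPTK1 (log2 difference -1.01, SE 0.13, adjusted p 1.74e-05, edgeR) at a low level of 0.571 RPKM in HPB-ALL and 1.15 in KOPTK1, and so passed the filter only through KOPTK1. Its log2 difference with KOPTK1 libraries 1 to 3 alone was -0.99, and with libraries 4 to 6 alone it passed as well. SLC22A18, a membrane transporter, was at 2.36 and 1.90 RPKM (log2 difference 0.30, SE 0.12, adjusted p 0.0444, edgeR). The difference of SLC22A18 was 0.58 with KOPTK1 libraries 4 to 6 alone, and with libraries 1 to 3 alone it did not pass (0.12, adjusted p 0.288). PHLDA2 was below the filter.

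NEAT1 and NORAD differed least. NEAT1 was at 28.7, 33.4 and 34.3 RPKM in HPB-ALL and at 31.1, 38.5 and 42.6 in KOPTK1 (lowest, median and highest). KOPTK1 library 3, at 31.1 RPKM, lay within the HPB-ALL range. The log2 difference was -0.22 (SE 0.07, adjusted p 0.0138, edgeR), or 1.16-fold. It was -0.32 (SE 0.04) with KOPTK1 libraries 4 to 6 alone, and -0.07 (SE 0.05, adjusted p 0.280) with libraries 1 to 3 alone, where it did not pass. Without KOPTK1 library 6 the adjusted p was 0.0528, and without a filter on low values it was 0.0941, so the call for NEAT1 rests on these choices. The counts take all NEAT1 isoforms together, and the short isoform lies within the long one.

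NORAD was at 60.7, 67.4 and 73.3 RPKM in HPB-ALL and at 73.5, 76.8 and 82.6 in KOPTK1 (lowest, median and highest). The nearest libraries of the lines, at 73.3 and 73.5 RPKM, almost met. The log2 difference was -0.20 (SE 0.05, adjusted p 0.00390, edgeR), or 1.15-fold. It was -0.22 (SE 0.05) with KOPTK1 libraries 4 to 6 alone and -0.13 (SE 0.05, adjusted p 0.0396) with libraries 1 to 3 alone, and without a filter on low values it did not pass (-0.13, adjusted p 0.0563).

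OIP5-AS1 was the only member higher in HPB-ALL. It was at 26.1, 27.5 and 28.2 RPKM in HPB-ALL and at 17.9, 21.0 and 22.4 in KOPTK1 (lowest, median and highest). KOPTK1 libraries 1 to 3 held 22.3, 22.4 and 22.3 RPKM, and libraries 4 to 6 held 17.9, 19.6 and 18.8, so that the set nearer HPB-ALL was here the higher one. The log2 difference was 0.42 (SE 0.05, adjusted p 2.00e-05, edgeR), or 1.33-fold, and was 0.58 (SE 0.03) and 0.30 (SE 0.03) with KOPTK1 libraries 4 to 6 and 1 to 3 alone. OIP5, which overlaps 470 exonic bases of OIP5-AS1 (4.49%) on the other strand, differed in the same direction (log2 difference 0.17, SE 0.05, adjusted p 0.00925, edgeR), as did the nearby genes CHP1 (0.38, SE 0.07) and NUSAP1 (0.20, SE 0.04), which encode a calcium-binding protein and a spindle protein. The values with KOPTK1 libraries 4 to 6 and 1 to 3 alone were 0.20 and 0.18 for OIP5, 0.60 and 0.22 for CHP1, and 0.29 and 0.15 for NUSAP1.

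With HPB-ALL libraries 7 to 9 against KOPTK1 libraries 4 to 6, the sets in which the genes of the other line were lowest, the log2 differences were -1.40 for MIAT, -0.80 for MALAT1, -0.70 for KCNQ1OT1, -0.39 for NEAT1, -0.33 for NORAD and 0.58 for OIP5-AS1. All 6 kept their direction. The shRNAs in these sets are not known, so line and shRNA cannot be told apart in these values. The sets belong to the same 12 libraries and were picked with the data seen, so the kept direction is not separate support.

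Within a line, the members varied by different amounts. In HPB-ALL the coefficient of variation was 2.48% for OIP5-AS1, 3.15% for MALAT1, 6.52% for KCNQ1OT1, 6.87% for NEAT1, 8.04% for MIAT and 8.27% for NORAD. Of the 1000 genes nearest in level to NORAD, 985 had a smaller coefficient of variation in HPB-ALL, and the median of those genes was 2.63%. For MIAT the number was 961 and for NEAT1 956, whereas for OIP5-AS1 it was 414. The HPB-ALL values include the distance between libraries 7 to 9 and 10 to 12. Within these sets NORAD varied by 2.57% and 1.66%, MIAT by 4.47% and 0.290%, and KCNQ1OT1 by 2.44% and 1.95%. NEAT1 varied by 7.26% and 1.09%. In KOPTK1 the order was different: MALAT1 varied most (17.3%, with 958 of its 1000 nearest genes lower), then MIAT (16.9%, 912 lower), while NORAD varied by 4.58%, with 422 of 1000 lower. Nearness was taken from counts scaled to library size and averaged over all libraries. By that measure MALAT1 was the highest gene, so its 1000 nearest genes all lay below it and are not a set of similar level. The KOPTK1 values include the distance between libraries 1 to 3 and 4 to 6. MALAT1 varied by 4.13% within libraries 1 to 3 and by 6.10% within libraries 4 to 6.

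Across the 6 libraries of a line, the pair of members with the most similar pattern in HPB-ALL was MIAT and NORAD (Pearson r = 0.97 on log2 RPKM), and it had an r of 0.93 in KOPTK1. OIP5-AS1 ran against the others in KOPTK1, with an r of -0.81 to -0.93 with each member, while in HPB-ALL it lay between -0.26 and 0.29. These are descriptions over 6 libraries that share shRNA groups, depth and, in KOPTK1, the split described above. Among 20563 other genes with a mean of at least 1 RPKM in both lines, those with the highest r in both lines at once were CCNE2 and SMC3 for NORAD (smaller of the r values 0.97 and 0.96), ZNF544 and TRAF3IP2-AS1 for MIAT (0.97 and 0.97), SRRM2-AS1 for NEAT1 (0.98), ASPH for MALAT1 (0.96) and RXYLT1-AS1 for OIP5-AS1 (0.95). For KCNQ1OT1 they were TRIM44 and ZBTB10 (0.97 and 0.97, among 20564 genes).

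Transcripts of the members' protein partners were compared in the same way. Of 13 paraspeckle proteins measured, which include the NEAT1-binding DBHS proteins, 5 were higher in HPB-ALL (SFPQ and HNRNPM among them), 2 were higher in KOPTK1 (PSPC1 and RBM14) and 6 did not pass, beside 65.5% of all tested genes that passed. The median log2 difference was 0.06, beside -0.03 for all tested genes. PSPC1, at 32.7 RPKM in HPB-ALL and 37.4 in KOPTK1, differed by -0.19 on the log2 scale (SE 0.07, adjusted p 0.0229, edgeR). SFPQ differed by 0.11 (SE 0.04, adjusted p 0.0388, edgeR), and NONO, at 174 and 169 RPKM, did not pass (log2 difference 0.05, adjusted p 0.0541, edgeR). With KOPTK1 libraries 4 to 6 alone, 10 of the 13 were higher in HPB-ALL and 3 in KOPTK1, where 70.1% of all tested genes passed, and with libraries 1 to 3 alone the numbers were 5 and 1, where 53.5% of all tested genes passed. In these subsets PSPC1 differed by -0.23 and, without passing, by -0.11 (adjusted p 0.208), SFPQ by 0.14 and 0.11, and NONO by 0.08, where it passed (adjusted p 0.00238), and 0.05 (adjusted p 0.0623).

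Of 15 nuclear speckle proteins, 5 were higher in HPB-ALL, 6 were higher in KOPTK1 and 4 did not pass (median log2 difference 0.03), so that 11 of 15 passed beside 65.5% of all tested genes. The speckle scaffold proteins SON and SRRM2 were slightly higher in KOPTK1 (log2 differences -0.09 and -0.10, SE 0.02 for each), as were the splicing factors SRSF5 (-0.28, SE 0.03) and SRSF7 (-0.27, SE 0.04). SRSF2 (0.24, SE 0.04) and ACIN1 (0.28, SE 0.05) were higher in HPB-ALL. With KOPTK1 libraries 4 to 6 alone, 8 were higher in HPB-ALL and 5 in KOPTK1 (70.1% of all tested genes passed), and with libraries 1 to 3 alone 4 and 5 (53.5% of all tested genes). In the same order of subsets the log2 differences were -0.07 and -0.06 for SON, -0.06 and -0.10 for SRRM2, -0.28 and -0.23 for SRSF5, -0.33 and -0.17 for SRSF7, 0.34 and 0.18 for SRSF2, and 0.36 and 0.23 for ACIN1, all past the threshold.

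Of 6 proteins tied to NORAD, 3 were higher in KOPTK1, 1 was higher in HPB-ALL and 2 did not pass, with the same numbers in either set of KOPTK1 libraries, where 65.5% of all tested genes passed with all libraries, 70.1% with libraries 4 to 6 and 53.5% with libraries 1 to 3. PUM2, a Pumilio protein, was at 36.15 to 39.99 RPKM in the HPB-ALL libraries and at 43.8 to 50.3 in KOPTK1, without overlap (log2 difference -0.30, SE 0.04, adjusted p 3.24e-05, edgeR). ALYREF, an mRNA export factor, was higher in HPB-ALL (log2 difference 0.12, SE 0.03, adjusted p 0.00255, edgeR). The values with KOPTK1 libraries 4 to 6 and 1 to 3 alone were -0.34 and -0.21 for PUM2 and 0.18 and 0.10 for ALYREF. Of the 5 proteins tied to OIP5-AS1 and MIAT, ELAVL1 was higher in HPB-ALL (log2 difference 0.21, SE 0.03, adjusted p 1.71e-04, edgeR), as were CELF1 and CELF2, which regulate splicing. QKI, at 6.01 RPKM in HPB-ALL and 7.81 in KOPTK1, was higher in KOPTK1 (-0.38, SE 0.04, adjusted p 2.61e-06, edgeR), and so was SF1, the branch-point binding protein (-0.08, SE 0.03). With KOPTK1 libraries 4 to 6 alone, or 1 to 3 alone, 3 of these 5 were higher in HPB-ALL and 1 in KOPTK1, and SF1 did not pass (-0.06 in both, adjusted p 0.104 and 0.109). The values in these subsets were 0.29 and 0.16 for ELAVL1, 0.16 and 0.08 for CELF1, 0.42 and 0.22 for CELF2, and -0.41 and -0.30 for QKI.

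Of the 12 chromosomal neighbours of the members that passed the filter, 9 were higher in HPB-ALL and 2 in KOPTK1, with a median log2 difference of 0.23. Of all tested genes, 31.3% were higher in HPB-ALL and 34.1% in KOPTK1. The genes near NEAT1 and MALAT1 were not among those higher in KOPTK1. FRMD8 (log2 difference 0.33, SE 0.05) and SLC25A45 (0.49, SE 0.09) were higher in HPB-ALL. CPNE1, near NORAD on chromosome 20, was at 48.1 RPKM in HPB-ALL and 78.2 in KOPTK1 (-0.70, SE 0.06, adjusted p 2.92e-07, edgeR), whereas EPB41L1 of the same region, at 1.67 RPKM in HPB-ALL and 0.971 in KOPTK1, passed the filter only through HPB-ALL, where it was higher (0.77, SE 0.12). Of the 12, 9 were higher in HPB-ALL and 2 in KOPTK1 with KOPTK1 libraries 4 to 6 alone (70.1% of all tested genes passed in either direction), and with libraries 1 to 3 alone 6 and 2 (53.5% of all tested genes). In these subsets the differences were -0.80 and -0.56 for CPNE1, 1.11 and 0.54 for EPB41L1, 0.44 and 0.27 for FRMD8, and 0.71 and 0.34 for SLC25A45.

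Beside 9 other noncoding RNAs, the members were neither the most different nor the most alike. PVT1, which lies next to MYC, was at 1.76 to 2.51 RPKM in HPB-ALL and 13.1 to 23.6 in KOPTK1 (log2 difference -3.09, SE 0.16, adjusted p 1.83e-08, edgeR), and CYTOR was higher in HPB-ALL (1.24, SE 0.21, adjusted p 1.71e-04, edgeR). In all, 5 were higher in KOPTK1, 1 in HPB-ALL and 3 did not pass, with a median log2 difference of -0.15, so that 6 of 9 passed beside 65.5% of all tested genes. Those that did not pass were TUG1 (0.08, adjusted p 0.0540), LINC-PINT (-0.15, adjusted p 0.0614) and TERC, the RNA of telomerase (-0.09, adjusted p 0.333). RMRP, at 160 RPKM in HPB-ALL and 201 in KOPTK1, was higher than every member except MALAT1 in its mean level. Its log2 difference was -0.32 with all libraries and -0.46 with KOPTK1 libraries 4 to 6 alone. With libraries 1 to 3 alone RMRP did not pass (-0.12, adjusted p 0.0617, edgeR). With KOPTK1 libraries 4 to 6 alone, 6 were higher in KOPTK1 and 2 in HPB-ALL (70.1% of all tested genes passed), and with libraries 1 to 3 alone 3 and 1 (53.5% of all tested genes). PVT1 differed by -3.36 and -2.71 in these subsets, and CYTOR by 1.92 and 0.84. TUG1 passed with libraries 4 to 6 alone (0.17, adjusted p 2.72e-05), as did TERC (-0.16, adjusted p 0.0495), whose value with libraries 1 to 3 alone had the other sign (0.03, adjusted p 0.770).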

How the data were processed

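RNA-Seq was made from HPB-ALL and KOPTK1 cells with shSHQ1 or shGFP (150 bp paired-end reads, TruSeq v2 kit). The authors' processing notes name Trimmomatic 0.36, STAR 2.5.4b, Picard 2.18.7, featureCounts 1.6.2, edgeR 3.22.3 and hg38, whereas the methods name hg19 and Bowtie 2 for splicing. The deposited tables are titled RPKM, but their library columns are not divided by gene length: made into CPM, they gave the authors' average log2 CPM (below). They were treated here like expected counts per gene as the authors deposited them, not normalized, with 15.1 to 17.2% of values not whole (beyond 0.001). The rule behind the fractions is not given in the sources used here. They also hold the authors' average log2 CPM per line and their log2 fold changes, F, p-values and FDR, of which only the average was read, as a check. The median difference from averages of the counts was 0.0040 and 0.0057.

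Counts of the 2 tables were joined by identifier (symbols matched for 95.8%), rounded, filtered at a mean RPKM of 1 in either line, and tested with edgeR 4.0.16 (TMM, quasi-likelihood, Benjamini-Hochberg, 0.05) in R 4.3.3. The model held line as its only term, with none for the shRNA. Each SE given was derived as the absolute log2 difference divided by the square root of the F statistic. Other steps used pandas and numpy. On simulated data (23345 genes, 100 changed at each size), the test found 94% of genes simulated with a log2 difference of 1. It found 87% of those with 0.5, and 3.21% of its calls were false. The simulated spread between libraries was smaller than that of the data (common biological coefficient of variation 0.111). Far fewer genes were changed than passed in the data, and no sets within a line were simulated. These rates therefore do not carry over to the comparison made here. Genes named are the members, lists of partners, neighbours, other noncoding RNAs and markers, and the genes most alike in pattern. Members and lists were chosen with earlier results of these data known. In these lists MATR3, TALAM1, RPPH1, RN7SK, RN7SL1 and RN7SL2 were not matched to 1 row and were not analysed here, and some listed genes are not reported here by name. Alternatives were DESeq2 1.42.0 (size factors and Wald test), other filters, median centring and leaving out libraries. Comparisons limited to KOPTK1 libraries 1 to 3 or 4 to 6, or to HPB-ALL libraries 7 to 9, were added after the data were seen. The 12 columns carry no shRNA label, so the planned knockdown tests were not made.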

Additional observations from a re-analysis of the deposited data

How the results depend on the processing

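Every member kept its direction under each alternative in which it was tested. These were DESeq2 size factors, the DESeq2 Wald test, no filter, a mean RPKM of at least 10, and median centring. The others were leaving out each library and the subsets of libraries. All of them use the same 12 libraries or parts of them, so they are not independent checks. The number of genes past the threshold was 15873, 19476 of 48578 without a filter, and 7196 of 9293 at a mean RPKM of at least 10, where fewer genes were tested and MIAT and KCNQ1OT1 were not. Leaving out 1 library gave 15005 to 16188 genes and 5 or 6 members. NEAT1 did not pass without KOPTK1 library 6 (-0.17, adjusted p 0.0528), without a filter (-0.15, adjusted p 0.0941) or with KOPTK1 libraries 1 to 3 alone (-0.07, adjusted p 0.280), and NORAD did not pass without a filter (-0.13, adjusted p 0.0563). The cause was not tested. Over the 12 fits that left out 1 library, the log2 difference of NEAT1 ran from -0.26 to -0.17. KCNQ1OT1 fell below the filter without KOPTK1 library 4 or 5. Levels scaled by library totals without TMM were within 1 SD of those given. No paired analysis was possible because the column headers carry no replicate number of a label. Tests of shSHQ1 against shGFP, and of its difference between the lines, were not run for the same lack of labels, nor was another pseudocount, which does not enter a count test.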

Other observations

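The target of the knockdown, SHQ1, was at 70.9, 71.9 and 70.9 RPKM in HPB-ALL libraries 7, 8 and 9 and at 47.2, 45.9 and 48.6 in libraries 10, 11 and 12. In KOPTK1 it was at 45.9, 44.5 and 46.6 RPKM in libraries 1, 2 and 3 and at 41.8, 41.7 and 39.4 in libraries 4, 5 and 6. The shRNA of each library is not given by its header, so none of these libraries was assigned to a group and no test was made.

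In HPB-ALL, NORAD, MIAT, KCNQ1OT1 and NEAT1 were lower in each of libraries 7, 8 and 9 than in each of 10, 11 and 12. How many other genes separate in the same way was not counted, so the separation cannot be called particular to these members. Nor can it be tied to an shRNA, since the headers give none. NORAD was at 60.7, 63.9 and 62.6 RPKM in libraries 7, 8 and 9 and at 72.6, 71.0 and 73.3 in libraries 10, 11 and 12. MIAT was at 3.33, 3.57 and 3.62 RPKM in libraries 7, 8 and 9 and at 4.02, 4.04 and 4.02 in libraries 10, 11 and 12. KCNQ1OT1 was at 0.660, 0.659 and 0.632 RPKM in the former and at 0.740, 0.713 and 0.733 in the latter. NEAT1 was at 28.7, 33.2, 31.0, 33.6, 34.3 and 34.2 RPKM in libraries 7 to 12, with the nearest values of the clusters close together. MALAT1 (645, 686, 645, 695, 659 and 675 RPKM in libraries 7 to 12) and OIP5-AS1 (27.6, 27.7, 27.4, 27.4, 26.1 and 28.2 RPKM) overlapped. The level of genes found mainly in KOPTK1 also differed between these HPB-ALL libraries, at 0.582 to 0.822% and 3.17 to 3.47% of the highest library, and its part in these values was not tested.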
